A study of Mus musculus with 12 samples.

Results

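Genes that copy DNA in S phase and genes that carry cells through mitosis were followed in mouse kidney as 2 separate sets. The list held 40 genes, chosen by symbol: 14 for replication and 26 for mitosis, and all 40 were among the 23238 gene symbols of the deposited tables. Transcripts had been measured by QuantSeq, which sequences the 3′ ends of polyadenylated RNA, in whole kidneys of C57BL/6 mice. The mice carried chronic kidney disease under time restricted feeding (CKD TRF, 4 libraries), chronic kidney disease alone (CKD, 4 libraries) or neither (Control, 4 libraries). All 12 libraries share strain and tissue, and no other allele or agent is named. The labels do not say how the disease was produced, which hours of feeding were allowed, at what age or clock time kidneys were taken, or whether each library came from its own animal. The p-values therefore measure the spread between libraries, which may be technical in part.

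Before S phase, the MCM proteins are loaded onto DNA as a ring of 6 subunits, Mcm2 to Mcm7, which becomes the replicative helicase once cyclin E and Cdk2 are active. E2F factors raise the genes for this machinery and for the enzymes that make deoxynucleotides. Later in the cycle, the DREAM complex, MuvB with B-Myb, and Foxm1 act on many mitotic promoters through a cell cycle homology region (CHR), often together with CCAAT boxes bound by NF-Y. Most tubular cells of an adult kidney are quiescent, and they can enter the cycle again after injury. Infiltrating leukocytes and interstitial fibroblasts can also divide there, and in RNA from whole kidney more cells of a dividing type and more RNA per cell cannot be told apart.

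The promoters of 6 members that were higher in CKD than in Control are shown. In each set these are the largest called changes whose window held the motif of that set, a CHR for mitosis or an E2F site for replication. They were picked by these motifs, so the lines cannot show how often either set holds them. Each line gives 250 bases before and 50 bases from the annotated start on, 5′ to 3′ on the gene's own strand, from RefSeq on build GRCm38.p6. For Mcm7 the line shows 1 of its 2 annotated windows. Capitals mark the CHR (TTTGAA) and CCAAT boxes in the mitotic promoters and E2F sites and CCAAT boxes in the replication promoters, on either strand, so that ATTGG is a CCAAT box read from the other strand.
Top2a (chr11:99024140-99024439, minus strand): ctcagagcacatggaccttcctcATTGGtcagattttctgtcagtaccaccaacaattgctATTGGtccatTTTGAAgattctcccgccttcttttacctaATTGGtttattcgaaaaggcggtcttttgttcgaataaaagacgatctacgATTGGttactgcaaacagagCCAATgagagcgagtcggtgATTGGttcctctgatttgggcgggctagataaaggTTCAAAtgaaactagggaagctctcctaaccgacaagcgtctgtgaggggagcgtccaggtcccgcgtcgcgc
Bub1b (chr2:118597961-118598260, plus strand): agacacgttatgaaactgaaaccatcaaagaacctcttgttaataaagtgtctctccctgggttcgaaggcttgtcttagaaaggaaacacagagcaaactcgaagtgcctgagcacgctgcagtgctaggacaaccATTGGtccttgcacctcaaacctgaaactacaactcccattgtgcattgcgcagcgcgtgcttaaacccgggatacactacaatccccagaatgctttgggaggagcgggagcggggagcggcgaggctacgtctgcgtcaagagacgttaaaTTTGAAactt
Kif23 (chr9:61946750-61947049, minus strand): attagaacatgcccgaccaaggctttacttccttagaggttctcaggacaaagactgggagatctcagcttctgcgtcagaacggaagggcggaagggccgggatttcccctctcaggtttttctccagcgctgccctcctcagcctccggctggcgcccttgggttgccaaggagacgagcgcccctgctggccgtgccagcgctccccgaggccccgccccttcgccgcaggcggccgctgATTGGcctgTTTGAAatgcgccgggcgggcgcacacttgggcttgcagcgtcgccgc
Mcm3 (chr1:20820263-20820562, minus strand): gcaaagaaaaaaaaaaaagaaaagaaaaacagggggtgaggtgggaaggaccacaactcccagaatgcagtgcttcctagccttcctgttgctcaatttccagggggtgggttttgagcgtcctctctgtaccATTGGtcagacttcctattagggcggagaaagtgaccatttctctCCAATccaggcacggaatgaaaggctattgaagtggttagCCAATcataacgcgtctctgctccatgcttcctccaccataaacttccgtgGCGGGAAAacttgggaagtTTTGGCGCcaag
Mcm5 (chr8:75109259-75109558, plus strand): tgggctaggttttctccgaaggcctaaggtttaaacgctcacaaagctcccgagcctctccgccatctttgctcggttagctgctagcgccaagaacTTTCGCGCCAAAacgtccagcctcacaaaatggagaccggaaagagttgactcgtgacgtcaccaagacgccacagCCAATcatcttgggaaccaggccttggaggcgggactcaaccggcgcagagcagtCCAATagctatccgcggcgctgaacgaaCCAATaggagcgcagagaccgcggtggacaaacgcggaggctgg
Mcm7 (chr5:138171834-138172133, minus strand): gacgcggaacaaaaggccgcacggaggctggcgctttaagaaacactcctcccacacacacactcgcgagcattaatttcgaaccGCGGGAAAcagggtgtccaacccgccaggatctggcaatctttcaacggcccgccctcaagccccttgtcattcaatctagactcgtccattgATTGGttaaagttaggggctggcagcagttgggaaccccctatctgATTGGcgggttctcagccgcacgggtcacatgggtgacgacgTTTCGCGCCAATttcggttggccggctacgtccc

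A CHR lay in the windows of 15 of the 20 mitotic genes with an entry (75.0%), of 1 of the 12 replication genes with an entry (8.33%; Mcm2) and of 20.2% of all 27025 genes with one. E2F sites were searched as TTTGGCGC, TTTCGCGC, TTTCCCGC and TTTGCCGC on both strands. They lay in the windows of 1 mitotic gene (5.0%; Cdk1), of 5 replication genes (41.7%; Cdk2, Mcm3, Mcm5, Mcm6 and Mcm7) and of 2.6% of all genes. CCAAT boxes were found for 18 mitotic genes (90.0%), 9 replication genes (75.0%) and 41.1% of all genes. The sets thus differed in CHR and E2F sites, while most genes of both held a CCAAT box. Top2a, which untangles replicated chromosomes, held 2 CHR matches and 6 CCAAT boxes. In Kif23 the CCAAT box began 7 bases before the start and the CHR lay just after it. The 2 E2F matches of Mcm5 overlap each other, and in Mcm7 an E2F match shares a base with a CCAAT box. Of the 15 mitotic genes with a CHR 8 were called higher in CKD than in Control, and of the 5 without it 2 were. Those 5 include Bub1, which was not tested. Ccnb1, Ccnb2 and Bub1b, among the mitotic genes called, entered the test only through the diseased groups. Of the 5 replication genes with an E2F site 3 were called higher, and of the 7 without it 3 were. Those 7 include Ccne1, which was not tested. Of all tested genes 23.6% were called higher in CKD. A match describes these letters in this window and is not evidence of binding.

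**Figure D1:**
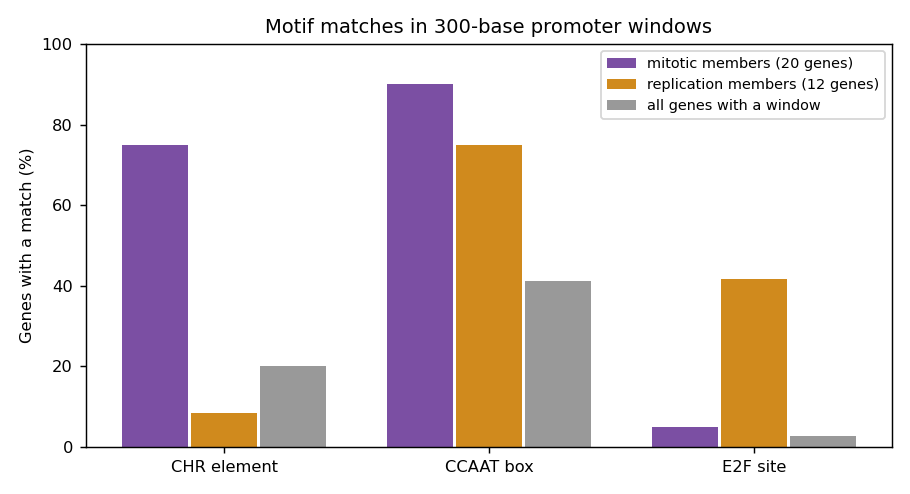
Share of genes whose promoter window of 300 bases held each motif (y axis, %), for mitotic members (purple), replication members (orange) and all genes with a window (grey). The CHR bar stands at 75.0% for mitotic members and at 8.33% for replication members, and the E2F bar at 5.0% and 41.7%.

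Levels are given as scaled reads, in which the authors had multiplied the reads of each library by its own factor; they are close in size to CPM. The libraries held 14145781 to 17209938 reads in CKD TRF, 14511935 to 16857778 in CKD and 10989743 to 12810446 in Control. At these depths 3 reads came to 0.168 to 0.306 scaled reads. Members ranged from 0 to 681 reads in a library, 7 of them had over 100 reads in every library, and 4 had under 10 reads in every Control library. Changes are differences of log2(scaled reads + 1) from 1 limma fit over all 3 groups, given ± SE with n = 4 libraries a group. The added 1 makes them understate the change of the least abundant members. Genes in the upper 60% by mean level were tested, and a call is a Benjamini-Hochberg adjusted p under 0.05 over all 13943 of them. Of the 40 members 37 were tested, 13 for replication and 24 for mitosis; Ccne1, Bub1 and Aurkb lay below the limit. Ccnb1, Ccnb2, Foxm1 and Bub1b had a Control mean below it and entered the test only through the diseased groups.

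Some libraries stood apart in a way that touches these results. Control 2 differed from the other Control libraries by a chi-square of 39.1 to 54.2 per degree of freedom, beside 9.32 to 26.5 among those. Its neutrophil markers summed to 34.8 scaled reads and its erythroid precursor markers to 59.4, the highest of all libraries. The fat cell genes Adipoq, Plin1 and Cidec together came to 26.6, 17.4 and 35.7 scaled reads in CKD TRF 1, 3 and 4 and to 61.6 and 111 in CKD 2 and 4. They came to at most 2.72 in the other 7 libraries, all Control libraries included. The full list of 8 fat markers summed to 55.7 to 352 in CKD TRF, 87.6 to 776 in CKD and 112 to 241 in Control. On that sum the 5 libraries did not all lie above Control. Leaving those 5 libraries out, a choice made after seeing the data, keeps 1 CKD TRF library, whose spread is then taken from the other groups, and 2 CKD libraries. Counts for CKD without the 5 libraries are given beside the main counts.

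Reads of 2 members could not be assigned to them with certainty. Ccna2, cyclin A2, overlaps Exosc9, an RNA exosome subunit on the opposite strand, by 510 exon bases (Ccna2 at chr3:36564865-36572150 on mm10, minus strand), and the strand setting of the counting is not given in the sources used here. Ccna2 had 323, 386, 374 and 410 reads in CKD TRF, 327, 326, 319 and 359 in CKD and 431, 393, 425 and 386 in Control. Exosc9 followed it library by library, with 0.814 to 0.985 Ccna2 reads for each Exosc9 read. Kif20a, a kinesin of cytokinesis, overlaps Cdc23, a subunit of the anaphase-promoting complex, by 1271 exon bases, which take up all of the last 500 bases of the Kif20a exons. Its 179, 183, 199 and 224 reads in CKD TRF, 161, 228, 251 and 232 in CKD and 97, 71, 119 and 110 in Control came to 0.918 to 1.11 for each Cdc23 read. Within each of these pairs the reads of the 2 genes cannot be told apart. Both genes of the first pair were lower in CKD than in Control, with changes of -0.86 ± 0.13 for Ccna2 (limma adjusted p = 1.6e-05) and -0.83 ± 0.12 for Exosc9 (limma adjusted p = 2.4e-05). Kif20a was higher in CKD by 0.49 ± 0.17 (limma adjusted p = 0.0230) and Cdc23 by 0.51 ± 0.17 (limma adjusted p = 0.0194), and the Kif20a call was lost without Control 2 (limma adjusted p = 0.0815), CKD 3 (0.0653) or CKD 4 (0.0736).

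An overlap did not bring such a match everywhere. Prc1, which bundles spindle microtubules, shares 911 exon bases with Rccd1, but Rccd1 had 0 to 10 reads in a library. For Ccne2, cyclin E2, which shares 609 exon bases with Ints8, the ratio of reads ran more widely, over 0.665 to 1.23. In all, 13 members share exon bases with another annotated gene, 9 of them with a coding gene on the opposite strand. Processed copies annotated for Ccnb1, Ccnb2, Tyms and Pcna could also share reads with them.

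**Figure D2:**
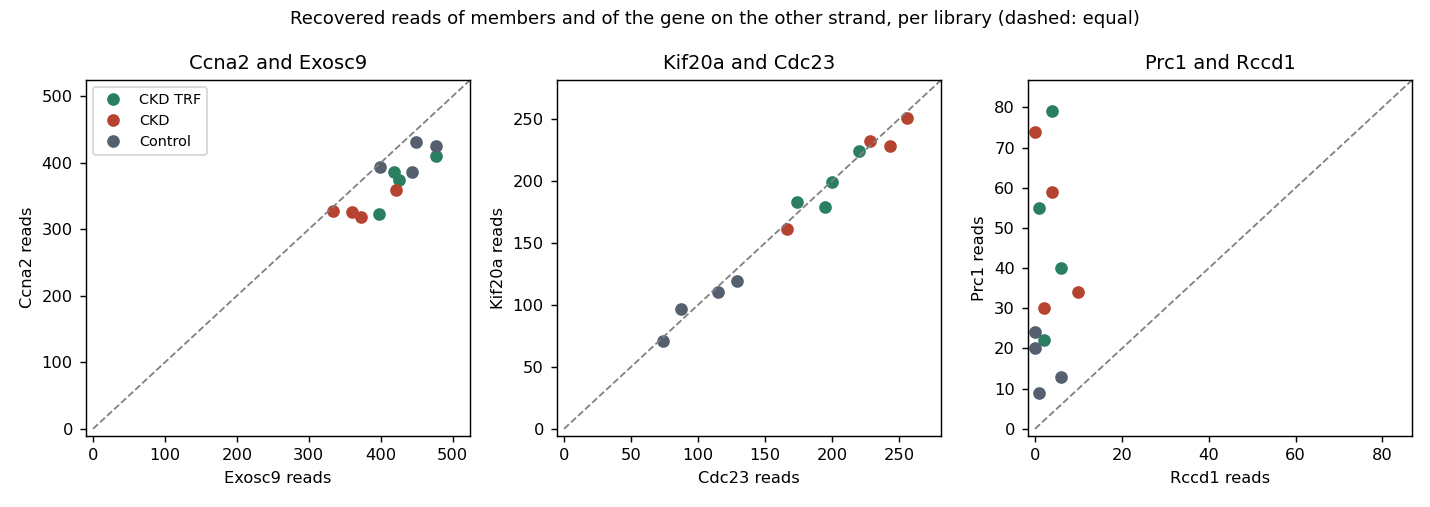
Reads per library of a member (y axis) against those of the overlapping gene on the opposite strand (x axis), with CKD TRF, CKD and Control libraries in 3 colours and a dashed line of equal reads. Ccna2 and Exosc9 and Kif20a and Cdc23 lie along that line in all 12 libraries, while Rccd1 stays at 0 to 10 reads whatever the level of Prc1.

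Of the replication genes, 5 subunits of the MCM helicase and both subunits of ribonucleotide reductase were called higher in each diseased group, while the sliding clamp Pcna was not called. The calls of both reductase subunits were lost without the fat-bearing libraries and with the covariate for fat and urothelium. Against Control, 7 of 13 tested replication genes were called higher and 0 lower in CKD, where 45.4% of all tested genes were called, 23.6% higher and 21.8% lower. Among genes in the members' range of mean levels, 22.9% were called higher in CKD TRF and 27.9% in CKD. In CKD TRF 8 of 13 were called higher than Control and 0 lower, where 37.5% of all tested genes were called, 19.5% higher and 17.9% lower. The median change of the 13 was 0.64 in CKD TRF and 0.53 in CKD, against medians of 0.01 and 0.02 over all tested genes. All 4 libraries lay above all Control libraries for 8 of the 13 genes in CKD TRF and for 6 in CKD, beside 16.3% and 20.3% of all tested genes. All lay below for 1 gene in CKD TRF and 0 in CKD, beside 15.6% and 19.2%. Both comparisons use the same Control libraries, so they are not independent of each other. Without the libraries that held fat markers, 3 of the 13 were called in CKD, a smaller share than among all tested genes. In CKD TRF, left with 1 library, most calls were lost.

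Of the helicase subunits Mcm3 had the largest change in CKD. Mcm3 stood at 6.88, 11.7, 6.67 and 11.7 scaled reads in CKD TRF, at 11.6, 10.3, 12.7 and 10.3 in CKD and at 5.11, 3.32, 5.78 and 4.66 in Control. Every diseased library lay above every Control library, and CKD TRF 1 and 3 lay below the whole CKD group. The change against Control was 0.82 ± 0.21 in CKD TRF (limma adjusted p = 0.00387) and 1.11 ± 0.21 in CKD (limma adjusted p = 2.0e-04), with mean levels 1.96 and 2.38 times that of Control. Mcm5 stood at 6.09, 6.5, 6.08 and 7.03 scaled reads in CKD TRF, at 5.45, 6.22, 5.11 and 6.56 in CKD and at 3.06, 3.32, 2.21 and 2.28 in Control, again with no overlap with Control. It was higher than Control by 1.01 ± 0.18 in CKD TRF (limma adjusted p = 2.6e-04) and by 0.88 ± 0.18 in CKD (limma adjusted p = 6.3e-04). The Mcm5 call in CKD TRF was lost without the fat-bearing libraries. Mcm7 had 30.0, 42.9, 38.8 and 36.4 scaled reads in CKD TRF, 34.2, 38.2, 35.7 and 35.5 in CKD and 23.1, 27.5, 25.3 and 22.7 in Control. Its change, 0.56 ± 0.12 in CKD TRF (limma adjusted p = 0.00123) and 0.53 ± 0.12 in CKD (limma adjusted p = 0.00155), was measured with the smallest error of the 5 called subunits.

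Mcm2 and Mcm4 completed the called subunits. The Mcm2 change was 0.65 in CKD TRF and 0.68 in CKD, and the Mcm4 change 0.83 and 0.70. Both calls were lost without the libraries that held fat markers (for CKD against Control, limma adjusted p = 0.101 for Mcm2 and 0.118 for Mcm4). In that comparison Mcm4 also lost its call on leaving out Control 2 (limma adjusted p = 0.0554), its lowest library at 3.04 scaled reads, and under quantile normalization and the covariate for fat and urothelium (0.102 and 0.0916). Mcm6, the remaining subunit, had 12, 17.4, 17.6 and 18.2 scaled reads in CKD TRF, 14.8, 11.5, 18.5 and 15.4 in CKD and 18.3, 21.2, 18.3 and 19.8 in Control. Its change of -0.36 ± 0.16 in CKD was not called (limma adjusted p = 0.0740), nor was that of -0.25 ± 0.16 in CKD TRF (limma adjusted p = 0.233), although the CKD TRF libraries all lay below Control. Pcna, the clamp that holds DNA polymerases on the template, had 16.7 to 20.8 scaled reads in CKD TRF, 16.3 to 21.6 in CKD and 14.5 to 24.3 in Control. The 95% interval of its change ran over -0.28 to 0.38 in CKD TRF and -0.36 to 0.30 in CKD.

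The supply of deoxynucleotides showed the same split between called and uncalled members. Rrm2, the subunit of ribonucleotide reductase that is made in S phase, stood at 3.87, 4.44, 3.76 and 5.72 scaled reads in CKD TRF, at 2.08, 5.21, 4.35 and 4.07 in CKD and at 0.919, 1.47, 2.21 and 1.83 in Control. CKD 1 overlapped Control and the other 7 diseased libraries did not. The Rrm2 change was 1.07 ± 0.24 in CKD TRF (limma adjusted p = 0.00171) and 0.90 ± 0.24 in CKD (limma adjusted p = 0.00528). Rrm1, the large subunit, was higher by 0.64 ± 0.20 and 0.66 ± 0.20, and its lowest library was Control 2 at 4.79 scaled reads, against 10.2 to 12.4 in the other Control libraries. Without Control 2, the Rrm1 change was 0.37 in CKD TRF, no longer called (limma adjusted p = 0.0561), and 0.39 in CKD (limma adjusted p = 0.0349). Neither subunit was called once the fat-bearing libraries were left out, with limma adjusted p = 0.277 for Rrm1 and 0.109 for Rrm2 in CKD TRF, and 0.152 and 0.138 in CKD. With the covariate for fat and urothelium neither was called either (limma adjusted p = 0.0951 and 0.0808 in CKD TRF, and 0.0747 and 0.169 in CKD). Tyms, thymidylate synthase, which makes dTMP, was not called: its change was -0.01 in CKD TRF and -0.14 in CKD, and its 4 Control libraries ran over 7.86 to 14.4 scaled reads.

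Among the regulators of S phase entry, E2f1, a transcription factor of the E2F family, was called in CKD TRF alone of the diseased groups. It stood at 7.38, 8.75, 5.19 and 7.29 scaled reads in CKD TRF, at 5.19, 5.66, 5.69 and 4.33 in CKD and at 5.11, 4.14, 3.57 and 3.65 in Control. The change was 0.66 ± 0.19 in CKD TRF (limma adjusted p = 0.0105) and 0.28 ± 0.19 in CKD (limma adjusted p = 0.241). The difference between the diseased groups was itself not called (0.38 ± 0.19, limma adjusted p = 0.789). The E2f1 call in CKD TRF was lost under quantile normalization (limma adjusted p = 0.116) and without the fat-bearing libraries. Cdk2, the kinase partner of cyclin E, was not called in CKD TRF (0.30 ± 0.20) or CKD (0.40 ± 0.20). Ccne2 changed by -0.08 and -0.12, neither called. Ccne1, cyclin E1, had 0.197 to 1.33 scaled reads in CKD TRF, 0.232 to 0.919 in CKD and 0.183 to 1.38 in Control, and these ranges overlap throughout.

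**Figure D3:**
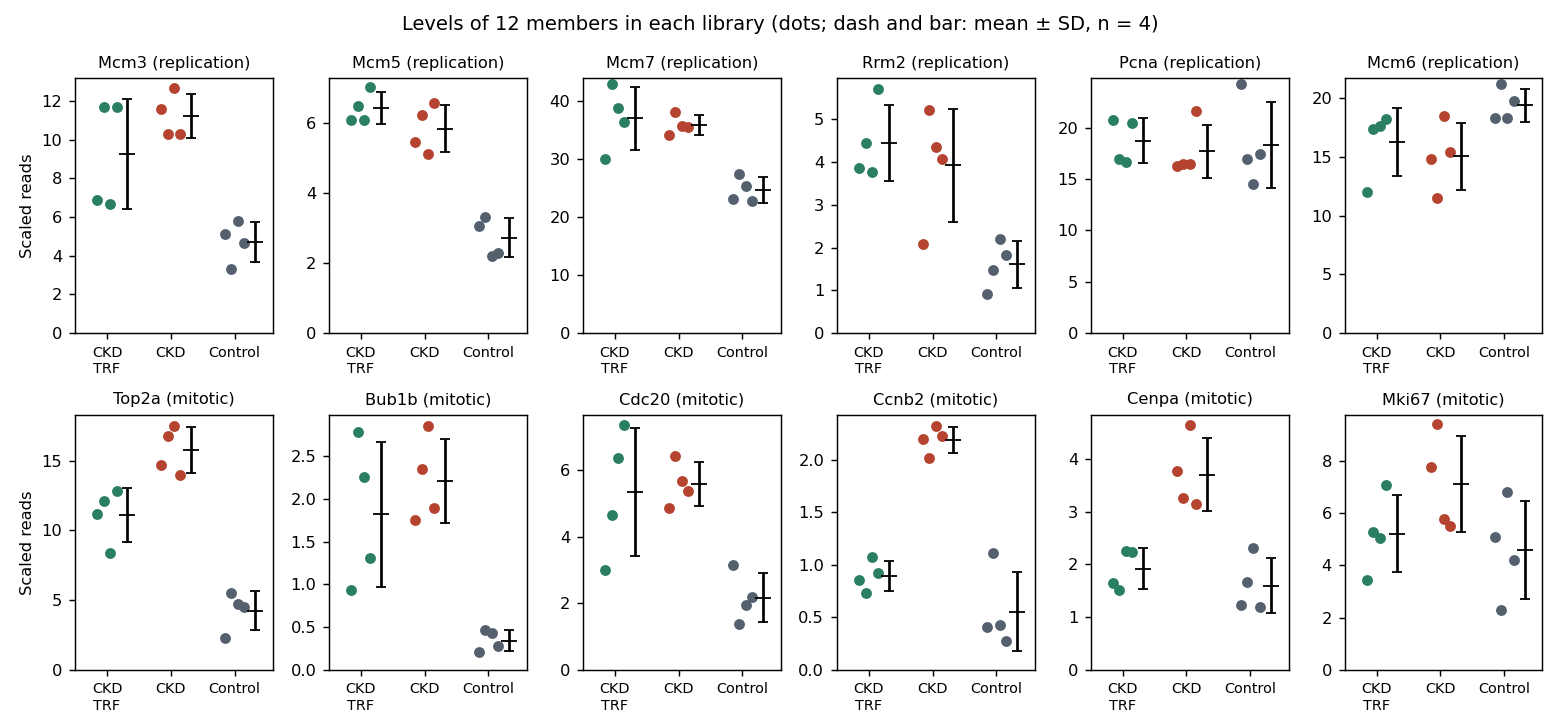
Scaled reads (y axis) of 6 replication genes (upper row) and 6 mitotic genes (lower row) in each library of CKD TRF, CKD and Control. Dots are libraries and the dash with its bar is the mean ± SD (n = 4); Mcm3, Mcm5, Mcm7, Top2a and Bub1b show no overlap of either diseased group with Control, while Pcna overlaps fully.

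Of the mitotic genes, Top2a (topoisomerase 2-alpha), Bub1b, Kif23, Cdc20 and Ccnb2 had the largest changes called in CKD. In CKD 11 of 24 tested mitotic genes were called higher than Control and 1 lower. Without Ccna2 and Kif20a, whose reads are uncertain, this was 10 higher and 0 lower of 22. Ccnb1, Ccnb2 and Bub1b, 3 of the 4 members that entered the test only through the diseased groups, are among the 11. Of the other 20 mitotic genes 5 were called higher in CKD TRF and 8 in CKD, and 1 lower in each, beside 19.5% and 23.6% of all tested genes called higher. With libraries scaled to the same sum, 9 of the 24 were called higher in CKD TRF and 16 in CKD, and 1 lower in each. That scaling moved the median change of all tested genes by 0.130 in CKD TRF and 0.205 in CKD, and more of all tested genes were called higher as well. As deposited, 7 of the 24 were called higher and 1 lower in CKD TRF, or 6 and 0 without the uncertain pair. All 4 libraries lay above all Control libraries for 6 of the 24 genes in CKD TRF and for 8 in CKD, beside 16.3% and 20.3% of all tested genes. Without the 4 that entered the test only through the diseased groups, this held for 4 of 20 in CKD TRF and 6 of 20 in CKD. All 4 libraries lay below all Control libraries for 1 gene, Ccna2, in each, beside 15.6% and 19.2%. The median change was 0.37 in CKD TRF and 0.64 in CKD, against 0.01 and 0.02 over all genes, with 0.37 and 0.54 over the 20. Once the fat-bearing libraries were left out, 9 of the 24 were called in CKD, Ccna2 among them, a larger share than among all tested genes. In CKD TRF, left with 1 library, most calls were lost.

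Top2a had the lowest adjusted p of all members in both diseased groups. It stood at 11.2, 12.1, 8.40 and 12.8 scaled reads in CKD TRF, at 14.7, 16.8, 17.5 and 14.0 in CKD and at 2.25, 5.53, 4.68 and 4.48 in Control. The 3 groups did not overlap, with CKD on top, CKD TRF between and Control below. The change against Control was 1.24 ± 0.20 in CKD TRF (limma adjusted p = 8.7e-05) and 1.72 ± 0.20 in CKD (limma adjusted p = 1.4e-06), with mean levels 2.63 and 3.73 times that of Control. Mki67, the antigen by which dividing cells are counted in tissue sections, was not called. It had 3.44, 5.30, 5.07 and 7.09 scaled reads in CKD TRF, 7.78, 9.41, 5.80 and 5.51 in CKD and 5.11, 2.30, 6.80 and 4.20 in Control. Its groups overlapped, and its change of 0.19 ± 0.25 in CKD TRF (limma adjusted p = 0.597) and 0.58 ± 0.25 in CKD (limma adjusted p = 0.0700) did not pass. With libraries scaled to the same sum it passed in CKD (0.76 ± 0.26, limma adjusted p = 0.0220). Hmgb2, a chromatin protein, changed by -0.02 and -0.17 and was not called.

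Both B cyclins of mitotic entry had few reads in Control and entered the test only through the diseased groups. Ccnb2, cyclin B2, had 0.860, 0.729, 1.07 and 0.920 scaled reads in CKD TRF, 2.20, 2.02, 2.32 and 2.23 in CKD and 0.408, 1.11, 0.425 and 0.274 in Control. CKD lay above both other groups with no overlap, and CKD TRF overlapped Control. The Ccnb2 change against Control was 0.31 ± 0.23 in CKD TRF (limma adjusted p = 0.304) and 1.07 ± 0.23 in CKD (limma adjusted p = 8.6e-04). Ccnb1, cyclin B1, had 27, 44, 27 and 33 reads in CKD TRF, 48, 43, 12 and 10 in CKD and 8, 0, 9 and 2 in Control. In scaled reads these came to 1.61 to 2.91 in CKD TRF, to 3.11, 2.41, 0.697 and 0.655 in CKD and to at most 0.816 in Control, so that CKD 3 and 4 overlapped Control and CKD TRF did not. Its change was 1.16 ± 0.31 in CKD TRF (limma adjusted p = 0.00573) and 0.84 ± 0.31 in CKD (limma adjusted p = 0.0312). The call in CKD was lost on leaving out CKD 1 (limma adjusted p = 0.131), CKD 2 (0.106), Control 2 (0.0927) or Control 4 (0.0755).

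Cdk1, the kinase of the B cyclins, was higher by 0.81 ± 0.25 in CKD (limma adjusted p = 0.0128) and not called at 0.55 ± 0.25 in CKD TRF (limma adjusted p = 0.0901). Without CKD 3, its highest library at 7.49 scaled reads, the call in CKD was lost (limma adjusted p = 0.0582). Plk1, polo-like kinase 1, barely passed in CKD (0.65 ± 0.26, limma adjusted p = 0.0439) and lost that call under 13 of the 24 alternatives that tested it, among them the omission of each CKD library but CKD 3 and of each Control library but Control 3. In CKD TRF its change was 0.32 ± 0.26. Aurka, a centrosomal kinase, changed by 0.19 and 0.29 and was not called. Foxm1, the transcription factor of mitotic genes, had 0.329 to 0.834 scaled reads in CKD TRF, 0.560 to 1.86 in CKD and 0.204 to 1.19 in Control. Its change of 0.63 ± 0.27 in CKD was not called (limma adjusted p = 0.0615), nor was that of 0.09 ± 0.27 in CKD TRF (limma adjusted p = 0.828).

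At the centromere and the spindle checkpoint, Bub1b, the checkpoint protein BubR1, came up from a few reads. Bub1b had 13, 42, 38 and 20 reads in CKD TRF, 27, 42, 49 and 29 in CKD and 2, 5, 5 and 3 in Control. No diseased library overlapped Control. On the log2 scale the change was 1.03 ± 0.25 in CKD TRF (limma adjusted p = 0.00296) and 1.25 ± 0.25 in CKD (limma adjusted p = 4.2e-04). Mean levels were 5.35 and 6.49 times that of Control, a fold that rests on 2 to 5 reads in each Control library. Bub1b entered the test only through the diseased groups. The log2 change was larger in limma voom on the reads, which adds less to low values: 2.20 ± 0.64 in CKD TRF and 2.57 ± 0.63 in CKD. Likewise the voom change of Ccnb2 in CKD was 2.06 ± 0.50. Bub1, the partner kinase, had 2 to 16 reads in CKD TRF, 4 to 12 in CKD and 0, 1, 1 and 1 in Control, at or under the limit of 3 reads, so no fold is given. Aurkb, the kinase of the chromosomal passenger complex, had 2 to 11, 0 to 11 and 0 to 5 reads in the 3 groups in that order, and its groups overlapped.

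Cenpa, the histone H3 variant that marks centromeres, had 1.65, 1.52, 2.26 and 2.23 scaled reads in CKD TRF, 3.76, 3.25, 4.65 and 3.15 in CKD and 1.23, 1.66, 2.30 and 1.19 in Control. As for Ccnb2, CKD lay above both other groups with no overlap and CKD TRF overlapped Control. The Cenpa change was 0.18 ± 0.22 in CKD TRF (limma adjusted p = 0.548) and 0.87 ± 0.22 in CKD (limma adjusted p = 0.00317). Birc5, survivin, a passenger complex subunit, had 4.66, 7.09, 4.29 and 8.67 scaled reads in CKD TRF, 9.53, 4.04, 6.67 and 5.11 in CKD and 3.47, 2.76, 3.40 and 2.10 in Control. It was higher by 0.84 ± 0.25 in CKD TRF (limma adjusted p = 0.0115) and by 0.86 ± 0.25 in CKD (limma adjusted p = 0.00788), the first of which was lost without CKD TRF 4 (limma adjusted p = 0.0506). Cenpe and Cenpf, kinetochore proteins, were not called; Cenpf changed by 0.52 and 0.51 and Cenpe by 0.03 and 0.14.

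Of the genes of spindle and cytokinesis 2 of 7, Kif20a and Kif23, were called in each diseased group, and of mitotic exit 1 of 2. Kif23, a kinesin of the central spindle, had 3.01, 2.32, 3.22 and 4.93 scaled reads in CKD TRF, 8.11, 5.49, 3.08 and 3.48 in CKD and 1.33, 1.2, 2.21 and 1.83 in Control. It was higher by 1.13 ± 0.26 in CKD (limma adjusted p = 0.00152). In CKD TRF it passed at 0.71 ± 0.26 (limma adjusted p = 0.0378) and lost that call under 15 of the 24 alternatives that tested it, with CKD TRF 1, 3 or 4 or Control 1, 2 or 4 left out among them. Cdc20, an activator of the anaphase-promoting complex, had 3.01, 4.64, 6.38 and 7.36 scaled reads in CKD TRF, 4.86, 6.44, 5.69 and 5.38 in CKD and 3.16, 1.38, 1.96 and 2.19 in Control, and CKD TRF 1 alone of the diseased libraries overlapped Control. Its change was 0.97 ± 0.24 in CKD TRF (limma adjusted p = 0.00307) and 1.08 ± 0.24 in CKD (limma adjusted p = 0.00104). The Cdc20 call in CKD TRF was lost with the covariate for fat and urothelium (limma adjusted p = 0.0598) and without the fat-bearing libraries. Tpx2, a spindle assembly factor, and Prc1 changed by 0.68 ± 0.29 and 0.65 ± 0.28 in CKD and were not called (limma adjusted p = 0.0601 and 0.0614). Kif11, Nusap1, Stmn1 and Ube2c were not called in either diseased group. Stmn1, a microtubule destabilizer that differentiated cells also make, ran over 28.2 to 34.2 scaled reads in CKD TRF, 26.3 to 32 in CKD and 31.3 to 40.6 in Control.

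**Figure D4:**
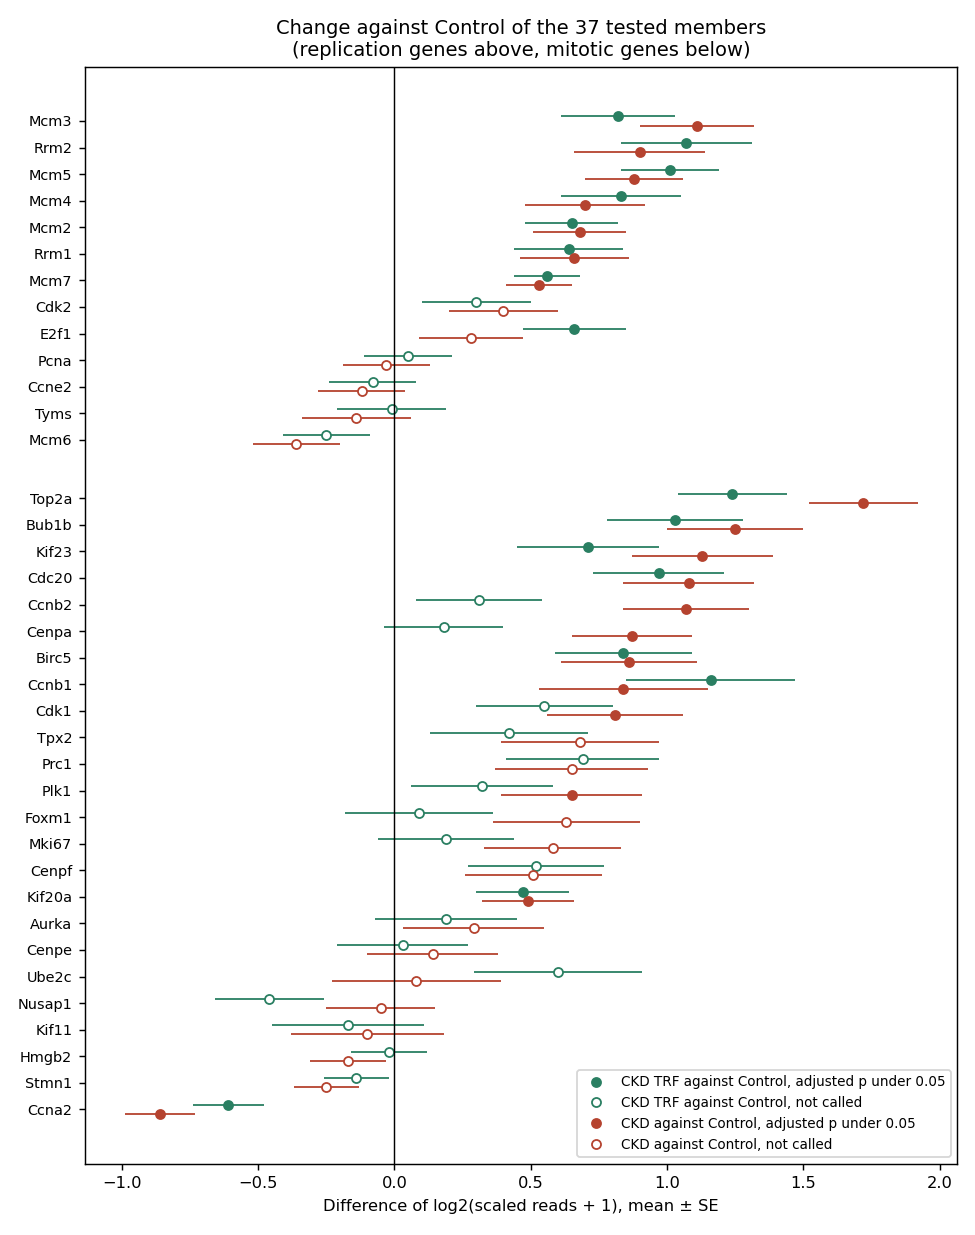
Change against Control on the log2(scaled reads + 1) scale (x axis, mean ± SE, n = 4) of the 37 tested members, with CKD TRF in green above CKD in red for each gene, and filled points for limma adjusted p under 0.05. Top2a reaches 1.72 in CKD, Mcm6, Stmn1 and Ccna2 lie left of 0, and the reads of Ccna2 and Kif20a are shared with other genes.

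Other genes of the same processes did not all move with the members. Of 43 tested other replication genes, 8 were called higher and 5 lower in CKD than in Control, and 6 and 3 in CKD TRF. The shares called higher, 14.0% in CKD TRF and 18.6% in CKD, were below the 19.5% and 23.6% of all tested genes. Without the 6 whose Control mean lay below the level of the filter, 5 were higher and 5 lower of 37 in CKD, and 4 and 3 in CKD TRF. Among those called higher in CKD were Uhrf1, which brings DNA methylation to new strands (1.36 ± 0.26, limma adjusted p = 2.7e-04; 4, 0, 11 and 5 reads in Control, below the level of the filter, so that it entered the test only through the diseased groups), Hells, a chromatin remodeller (1.24 ± 0.29), and Lig1, the ligase of Okazaki fragments (0.91 ± 0.16). Among those called lower were Rpa3, a subunit of the single-strand binding protein (-1.04 ± 0.36), Orc6 of the origin recognition complex (-0.95 ± 0.25) and Gmnn, geminin, which blocks reloading of the helicase (-0.58 ± 0.22). Rpa3 rested in part on Control 1 at 11.6 scaled reads, beside 1.45 to 4.05 in the other Control libraries (a change of -0.60 and limma adjusted p = 0.115 without Control 1, and -0.86 and 0.0753 without CKD 1). The Gmnn call was lost under 9 of the 24 alternatives that tested it, with Control 2, Control 3, CKD 1 or CKD 2 left out among them. Scaling each library to the same sum gave 13 higher and 3 lower of these genes in CKD, and median centring 4 and 6. These scalings moved the median change of all tested genes by 0.205 and -0.104, and calls over all genes shifted in the same directions.

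Of 30 tested other mitotic genes, 8 were called higher and 2 lower in CKD than in Control, and 6 and 1 in CKD TRF. The share called higher in CKD, 26.7%, stood beside 23.6% of all tested genes, and the 6 of 30 in CKD TRF beside 19.5%. Without the 3 with a Control mean below the level of the filter, 7 were higher and 2 lower of 27 in CKD, and 5 and 1 in CKD TRF. The largest rises in CKD were those of Racgap1, a partner of Kif23 in the central spindle (1.37 ± 0.25, limma adjusted p = 1.6e-04; 7, 4, 17 and 3 reads in Control, again below the level of the filter), Incenp of the passenger complex (1.09 ± 0.22, limma adjusted p = 4.5e-04), Cks1b, a small subunit of Cdk complexes (0.87 ± 0.18), and Cdca8, borealin (0.67 ± 0.21). Cks2, the paralog of Cks1b, and Spc25 of the kinetochore were lower, with changes of -0.43 ± 0.14 and -0.36 ± 0.13, and both calls were lost when libraries were scaled to the same sum. Leaving out Control 2 also ended the Cks2 call (limma adjusted p = 0.0509), and leaving out Control 1 (0.0964), CKD 1 (0.0788) or CKD 2 (0.0749) the Spc25 call.

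D-type cyclins and inhibitors of the cycle, which act ahead of S phase, also changed. Of 18 tested, 10 were higher and 2 lower in CKD than in Control, and 9 and 2 in CKD TRF. Without Cdkn2a this was 9 and 2 of 17 in CKD, and 8 and 2 in CKD TRF. Of all tested genes, 23.6% were called higher and 21.8% lower in CKD, and 19.5% and 17.9% in CKD TRF. Cdkn2a, which encodes the inhibitors p16 and p19Arf, had 33, 22, 22 and 14 reads in CKD TRF, 32, 52, 39 and 28 in CKD and 0, 0, 0 and 1 in Control; it entered the test only through the diseased groups, and no fold is given. The inhibitors Cdkn2b, p15, and Cdkn1a, p21, rose in CKD by 1.57 ± 0.24 and 1.44 ± 0.15 (limma adjusted p = 2.3e-05 and 3.0e-07). Cdkn1a had 38.2, 23.3, 30.3 and 32.8 scaled reads in CKD TRF, 36.9, 48.5, 41.7 and 42.2 in CKD and 14.0, 18.8, 13.9 and 13.5 in Control. Ccnd2, cyclin D2, rose by 1.14 ± 0.16. Cdkn2d, p19Ink4d, was lower, with a change of -0.52 ± 0.17, a call lost without Control 2 (limma adjusted p = 0.0526). Ccnd3, cyclin D3, was lower, with a change of -0.48 ± 0.11, but it shares 361 exon bases with Bysl on the opposite strand and had 0.788 to 0.911 reads for each Bysl read, so its reads are uncertain. Scaling to the same sum ended both of these calls (limma adjusted p = 0.122 for Cdkn2d and 0.059 for Ccnd3).

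Between the diseased groups no gene passed: limma called 0 of 13943 genes (0.00%) in CKD TRF against CKD, with 890 at an unadjusted p under 0.05 (6.38%), and limma voom called 0. All 13 replication genes and all 24 mitotic genes were therefore uncalled. The median difference was 0.08 for replication genes and -0.10 for mitotic genes, beside -0.01 over all genes. The point estimate was higher in CKD TRF for 9 of 13 replication genes and lower for 17 of 24 mitotic genes. Ccnb2, Cenpa and Top2a lay wholly below CKD in CKD TRF (the values of each library stand above), 3 of 24, beside 2.13% of all tested genes, and 0 members lay wholly above, beside 2.37%. Their differences were -0.75 ± 0.23 for Ccnb2 (unadjusted p = 0.00373, limma adjusted p = 0.705), -0.69 ± 0.22 for Cenpa (unadjusted p = 0.00533, limma adjusted p = 0.705) and -0.48 ± 0.20 for Top2a (unadjusted p = 0.0290, limma adjusted p = 0.738). None of the 3 survived the adjustment over all genes. The 95% intervals of other members held 0: -0.22 to 0.29 for Mcm7, -0.26 to 0.51 for Mcm5 and -0.33 to 0.68 for Rrm2, and for Mki67 the interval ran over -0.92 to 0.14.

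**Figure D5:**
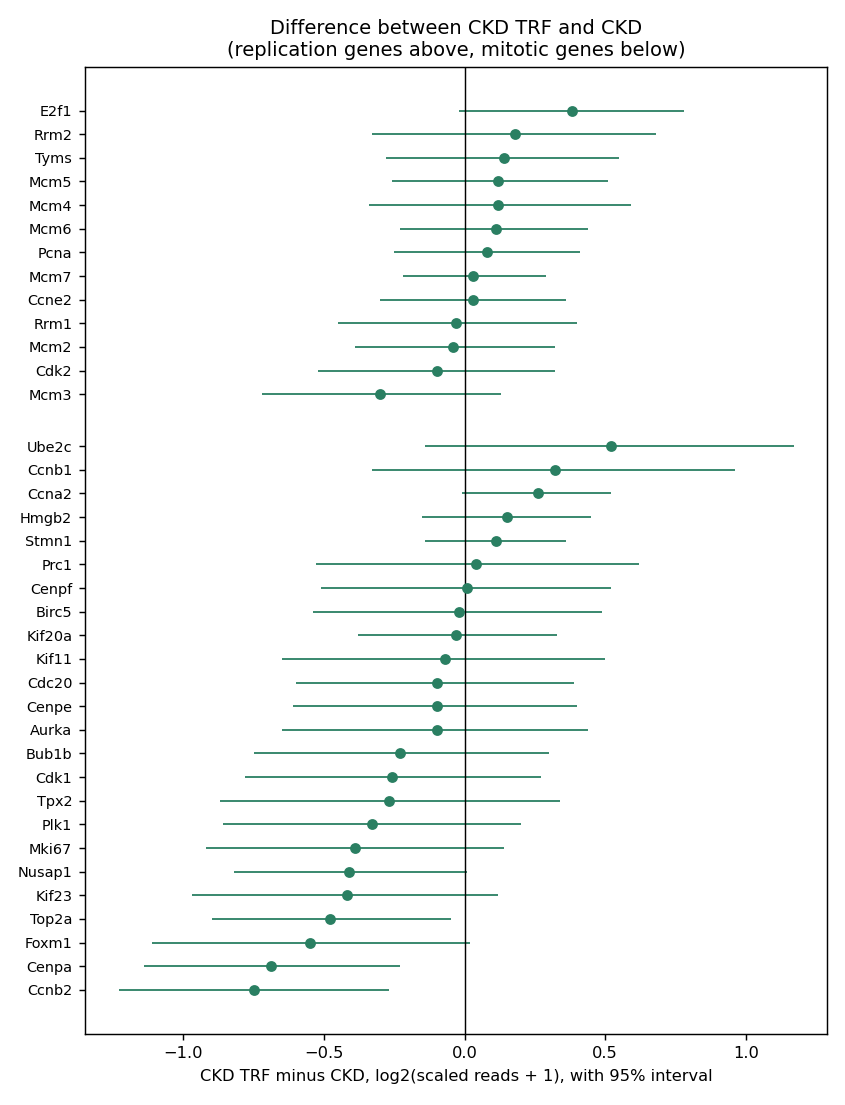
Difference CKD TRF minus CKD on the log2(scaled reads + 1) scale (x axis, with 95% interval, n = 4 a group) for the 37 tested members. The intervals of Ccnb2, Cenpa and Top2a lie wholly below 0 before adjustment for 13943 genes, and none of the differences was called.

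Summed over members, replication genes came to 156 to 187 scaled reads in CKD TRF, 161 to 173 in CKD and 125 to 144 in Control. Mitotic genes without Ccna2 and Kif20a came to 113 to 141 in CKD TRF, 122 to 152 in CKD and 98.9 to 114 in Control. Of the markers of cell types that can divide or enter the kidney, those of macrophages, T cells, fibroblasts and injured tubule moved in the same direction. Among all tested genes, 19.5% were called higher in CKD TRF and 23.6% in CKD. Macrophage markers summed to 493 to 600, 516 to 664 and 155 to 197 scaled reads in CKD TRF, CKD and Control, with 12 of 12 called higher in both diseased groups. T cell markers summed to 23.5 to 26.7, 23.8 to 34.0 and 6.36 to 8.25, with 6 of 9 called higher in CKD TRF and 7 of 9 in CKD. Fibroblast markers summed to 1018 to 1171, 1239 to 1415 and 230 to 282, with 7 of 8 called in each. Markers of injured tubule summed to 200 to 236, 245 to 305 and 70.0 to 79.7, with 8 of 9 called in CKD TRF and 9 of 9 in CKD. The sums of these 4 lists did not overlap between the diseased groups and Control, and their part in the levels of replication and mitotic genes was not tested.

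B and plasma cell markers summed to 43.3 to 103 scaled reads in CKD TRF, 81.4 to 111 in CKD and 26.5 to 73.2 in Control, with 0 and 2 of 3 tested called higher. Erythroid precursor markers summed to 15 to 21.5, 13 to 19.6 and 23.2 to 59.4, with 1 of 4 tested called lower in each. Neutrophil markers summed to 10.4 to 14.6, 6.96 to 12.7 and 5.70 to 34.8, and Mpo and Elane, which mark their precursors, were at 0 in all libraries. Urothelium markers summed to 32.8 to 121, 28.9 to 141 and 3.68 to 14.7, with 6 of 6 tested called higher in each diseased group. Kidney tubule markers summed to 7564 to 8221, 6852 to 7496 and 5986 to 9311, so markers of the labelled tissue were present in every library. Of these 10 markers, 2 were called higher and 2 lower in CKD TRF, and 4 and 2 in CKD.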

How the data were processed

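RNA of 12 kidney libraries was extracted with Trizol, and 500 ng went into Lexogen QuantSeq libraries, per the labels' protocols. Bowtie2, bedtools and mm10 are named per the submitters' processing notes; the strand setting and the scaling are not given in the sources used here. The deposited files held 1 log2 value per gene symbol: log2 of a scaled read number plus 1, scaled by the authors before deposit, as read from the values. Whole reads were recovered from the step between low values; 98.1% to 100% of values under 20 came within 0.1 of whole reads, and these reads served in limma voom as an alternative. Of 35 symbols listed more than once, the row of highest mean was used. Reads carry no molecular identifiers in the sources used here, so depth limits cover counting error only.

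The 60% of genes with the highest mean log2 value (at least 0.729) entered limma 3.58.1 (R 4.3.3): a mean per group, a moderated two-sided test with a trend of the prior spread on level, Benjamini-Hochberg over 13943 genes, threshold 0.05. The fit was tested on simulated data. Libraries of a group differed beyond counting noise (lowest chi-square 9.32 per degree of freedom), so none was counted as a duplicate. Exon overlaps come from GENCODE vM21, and promoter windows from RefSeq (GRCm38.p6), which matched 32 of 40 members. All members could be named; of the other cycle lists, the 4 largest called changes per direction, of which 2 are not reported here. The members, lists and tests were chosen with earlier results of these data known. The alternatives numbered 25, of which 12 left out 1 library each.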

Additional observations from a re-analysis of the deposited data

Results flagged for a closer look

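In 8 of 120 sets of 4 libraries (40 members in 3 groups), 1 library lay far from the other 3, where chance alone gives about 1 in 20 such sets; values here are log2(scaled reads + 1). Mcm6 stood at 3.70 in CKD TRF 1, against 4.20 to 4.26 in the other CKD TRF libraries. Pcna stood at 4.50 in CKD 4, against 4.11 to 4.13 in the other CKD libraries, and Nusap1 at 3.33 in CKD 2, against 3.57 to 3.62. Among Control libraries, Cdk2 stood at 2.83 in Control 4 (3.43 to 3.51 in the others), Cenpe at 2.14 in Control 3 (2.82 to 2.89) and Kif20a at 2.92 in Control 2 (3.45 to 3.48). Ccna2 stood at 5.49 in Control 1 (5.18 to 5.22), and Bub1 at 0.00 in Control 1 (0.12 to 0.13), which is 0 reads beside 1 read in each of the others.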

How the results depend on the processing

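Under the 25 alternatives, no member changed sign while called in the main fit or in the alternative. Sign changes of members called in neither were not counted. Of 19 members called in CKD against Control, 9 kept the call under every alternative that tested them (Mcm3, Mcm5, Mcm7, Top2a, Ccna2, Ccnb2, Bub1b, Kif23, Cdc20), and of 16 in CKD TRF against Control, 4 did (Mcm3, Mcm7, Top2a, Bub1b). Among these, the reads of Ccna2 are uncertain, and Ccnb2 and Bub1b entered the test only through the diseased groups. Testing the upper 40% by level, which drops low members, called 3 and 3 replication members in CKD TRF and CKD against Control. It called 3 and 3 mitotic members, Top2a, Ccna2 and Kif20a, with the reads of Ccna2 and Kif20a uncertain and Ccna2 lower. In the same order, a fat and urothelium covariate called 4 and 4 replication members. It called 5 mitotic members in CKD TRF, and quantile normalization called 5 and 6 mitotic members. Without the libraries that held fat markers the counts were 2 and 3 replication members, and 2 mitotic members in CKD TRF; all genes came to 1478 and 4037, and with the covariate to 3092 and 4070. Of the other replication genes (9 and 13 called), the upper 40% left 3 and 4, the covariate 5 and 7, the omission of fat libraries 1 and 5, and no filter 8 in CKD. Of the other mitotic genes (7 and 10 called), quantile normalization left 2 and 6, the covariate 4 and 6, the omission 1 and 5, and the upper 40% 5 in CKD. In CKD TRF against CKD, no filter called 1 gene, no member.

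Leaving out 1 library at a time gave 7 to 8 replication members, 5 to 8 mitotic members and 4396 to 5150 genes in CKD TRF against Control, and 6 to 8, 10 to 14 and 5388 to 6311 in CKD against Control; other replication genes ran over 5 to 9 and 7 to 14, other mitotic genes over 5 to 8 and 8 to 10, and CKD TRF against CKD gave 0 to 1 genes. Equal sums moved the median of all genes by 0.205 in CKD against Control and 0.130 in CKD TRF against Control, and median centring by -0.104 and -0.079; calls higher and lower in CKD were 3297 and 3036 as deposited, 4989 and 1547 with equal sums and 2650 and 3918 with median centring, and in CKD TRF 2724 and 2501, 3656 and 1431, and 2296 and 3227. The causes of these shifts were not tested. The replicate numbers did not pair the libraries (r of -0.179 to 0.11 over 12 same-number pairs; best match with the same number in 5 of 24 cases); a replicate block called 8 and 7 replication and 7 and 13 mitotic members in CKD TRF and CKD against Control.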
